A study of Sus scrofa with 8 samples.

Results

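The extracellular WNT system was followed in pig somite and myotome cells as the set of genes whose symbol named a WNT ligand, a Frizzled receptor (FZD), the co-receptor LRP5 or LRP6, an R-spondin (RSPO), a secreted Frizzled-related protein (SFRP), a Dickkopf protein (DKK) or a Kremen receptor (KREMEN). The gene table paired 43 of its 21301 features with such a symbol, namely 18 ligands, 10 Frizzled receptors, LRP6, 4 R-spondins, 2 Kremen receptors, 4 SFRPs (SFRP1, SFRP2, SFRP4 and SFRP5) and 4 Dickkopf genes. WNT4 was not among the symbols of the table, and LRP5 stood there by its Ensembl identifier only, at 4.27 to 9.26 CPM over the 8 libraries. Neither was therefore a member. SFRP3 stood there as FRZB, a symbol outside the rule, at 14.4 to 39.2 CPM, and was not a member either. Membership was decided by the symbol of a gene.

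Secreted WNT proteins bind a Frizzled receptor together with LRP5 or LRP6, which stabilises beta-catenin in the receiving cell, while other WNT and Frizzled pairs act through planar cell polarity. R-spondins raise the number of receptors on the surface by keeping them from being degraded. SFRPs bind WNT proteins outside the cell, and DKK1 and DKK2 act on LRP5/6 together with Kremen receptors. In the embryonic trunk WNT proteins from the surface ectoderm and the dorsal neural tube are known to act on the dermomyotome, the part of the somite that gives rise to skeletal muscle.

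Single-cell RNA sequencing (10x Genomics 3′ chemistry) had been performed on cells of Tibetan pigs (ZZ) and of Duroc×Tibetan pigs (DZ, offspring of the same maternal breed) at embryonic days (E) 16, 18, 21 and 28. The 8 libraries comprised 1 of each breed at each stage, and each library pooled 5 embryos of a single sow, with no treatment or genetic change named in the labels. The tissue was somite at E16, E18 and E21 and myotome at E28, so tissue and stage cannot be told apart in the last step, and both E16 libraries had been made with another version of the counting software than the other 6. Levels are given as CPM, the UMIs (unique molecular identifiers, each standing for 1 captured RNA molecule) of a gene scaled to the same sum of UMIs in every library or group of cells, as is usual for this unit, and pairs of values are in the order ZZ, DZ.

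After filtering, 74147 of 90688 barcodes were kept as cells, 5436 to 10956 in a library, with 39852689 to 57568895 UMIs and a median of 3405 to 6160.5 UMIs per cell. E16-ZZ stood apart, since 39.2% of its barcodes exceeded the mitochondrial limit of 10%, against 1.05 to 9.15% in the other 7, and in E21-ZZ the doublet caller marked 320 of the 325 barcodes that it marked in all. 678 barcode sequences occurred in more than 1 library, at most 38 in any pair of libraries. Cells were assigned to classes by marker lists without any WNT-system gene, which placed 51.2% of the cells. A class is named for the markers that chose it, at least 3 of which had a UMI in each of its cells. For PAX3+ dermomyotome progenitors these were PAX3, TCF15, MEOX1, DMRT2, PRTG, UNCX, ALX4 and SIM1, and PAX3 itself was not required. PAX3 had a UMI in 7.12% of all cells and PRTG in 24.7%. Skeletal muscle markers were detected in the tissue labelled myotome, where the muscle progenitor/myoblast class made up 9.63 and 16.2% of the cells and the myocyte class 2.97 and 5.01%. Neural, epithelial, lateral plate and cardiac classes were also present in the tissue labelled somite.

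The members together held 322968 UMIs. SFRP1 alone held 123479 of them and SFRP2 51278, whereas DKK4 and WNT10A had 1 UMI each, WNT1 had 4 and WNT3A 11, and these 4 genes were too low for any test. Several ligand genes lie next to each other in the Sscrofa11.1 assembly. WNT9A (chr2:51102757-51128346, minus strand) faces WNT3A (chr2:51153978-51203678, plus strand), WNT6 (chr15:120901471-120917359) precedes WNT10A (chr15:120925204-120939032) on the plus strand, and WNT1 (chr5:15010607-15015007, plus strand) overlaps WNT10B (chr5:14997377-15013928, minus strand). The overlapping pair held 4 and 166 UMIs, and reads of their shared bases are separable by strand only.

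The promoters of members that were higher in muscle cells are shown here because these genes were higher at a step between the muscle classes described further on. Of the 7 members raised at either of the 2 steps examined, 3 (WNT9A, FZD4 and FZD9) held the E-box CAGCTG, a hexamer of the kind that the MYOD family binds, within the 250 bases before the RefSeq gene start, and it is printed in capitals. The hexamer is its own reverse complement, so a match counts for both strands. KREMEN2, which of the 7 had the largest log2 difference between myocytes and the other classes, is shown as well and held none of the 3 hexamers searched. The genomic positions on Sscrofa11.1 are chr2:51128347-51128596 (minus strand) for WNT9A, chr9:20721461-20721710 (minus strand) for FZD4, chr3:10753044-10753293 (plus strand) for FZD9 and chr3:39218806-39219055 (minus strand) for KREMEN2.
WNT9A: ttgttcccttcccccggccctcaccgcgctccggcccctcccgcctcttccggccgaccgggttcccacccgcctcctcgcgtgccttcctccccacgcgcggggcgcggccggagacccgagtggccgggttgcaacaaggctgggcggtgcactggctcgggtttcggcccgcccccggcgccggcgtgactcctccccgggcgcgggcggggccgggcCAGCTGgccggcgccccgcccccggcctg
FZD4: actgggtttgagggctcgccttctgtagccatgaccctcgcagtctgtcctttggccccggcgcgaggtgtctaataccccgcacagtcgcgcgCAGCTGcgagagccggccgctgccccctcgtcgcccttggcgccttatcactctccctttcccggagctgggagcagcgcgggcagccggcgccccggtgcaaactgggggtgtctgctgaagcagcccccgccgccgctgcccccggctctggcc
FZD9: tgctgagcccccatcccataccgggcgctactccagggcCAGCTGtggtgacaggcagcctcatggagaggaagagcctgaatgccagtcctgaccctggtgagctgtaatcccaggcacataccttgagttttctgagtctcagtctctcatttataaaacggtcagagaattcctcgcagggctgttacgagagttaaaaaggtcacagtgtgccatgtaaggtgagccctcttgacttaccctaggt
KREMEN2: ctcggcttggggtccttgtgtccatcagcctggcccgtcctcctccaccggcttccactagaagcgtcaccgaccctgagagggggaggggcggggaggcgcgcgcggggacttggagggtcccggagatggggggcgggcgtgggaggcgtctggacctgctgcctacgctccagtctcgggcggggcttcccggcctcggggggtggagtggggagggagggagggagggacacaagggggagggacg
CAGCTG occurred in 13.6% of the 19509 promoters of that length and in 8 of the 43 members. Among these 8 were also DKK1 and WNT11, which were lower at the first of the 2 steps. CTTTGA and CTTTGT, hexamers of the kind bound by the WNT effectors TCF and LEF and searched on both strands, occurred in 10.6% and 12.1% of all promoters and in 3 and 5 of the members. DKK1 (chr14:97490119-97490368, minus strand) held all 3 hexamers. A match is a description of these letters and not evidence of binding.

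Most WNT-system genes differed among the 4 stages when all cells of a library were summed. Of the 39 members with enough UMIs, 27 passed the test of any stage difference (edgeR quasi-likelihood F test, Benjamini-Hochberg adjusted p under 0.05 over 15119 genes), against 50.4% of all genes tested. The mean level was highest at E28 for 15 of the 27, at E16 for 7, at E18 for 3 and at E21 for 2. In such sums fewer cells of a type and less RNA per cell cannot be told apart, and the share of fibroblast/connective tissue cells was 5.78 and 0.905% at E16 and 48.5 and 34.3% at E28.

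Among the ligands, WNT2, WNT8A, WNT8B and WNT6 were highest at E16. WNT8A, known from the posterior end of the embryo, was at 1.38 and 4.24 CPM at E16, 0.278 and 0.0946 at E18, 0 and 0 at E21, and lastly 0 and 0.0237 at E28 (stage adjusted p = 0.00384, edgeR). Both E16 libraries lay above the other 6, and from E21 on a single UMI was left. WNT8B was at 0.427 and 0.991 CPM at E16 and at 0.0521 and 0.0189 at E18, and each library of E21 and E28 held 1 UMI (adjusted p = 0.0029). WNT2 went from 20.8 and 12.97 CPM through 7.80 and 7.25 to 0.885 and 1.00 at E21 and 1.72 and 0.237 at E28 (adjusted p = 0.00303), so that the E16, E18 and later libraries did not overlap. WNT6, a ligand of the surface ectoderm, was at 15.0 and 16.4 CPM at E16, 4.12 and 1.46 at E18, 6.42 and 3.42 at E21, and lastly 8.44 and 11.3 at E28 (adjusted p = 0.0076). Both E16 libraries lay above the other 6, E18 and E21 overlapped, and the share of epithelial cells was 12.99 and 12.4% at E16, 2.17 and 0.956% at E18, and at most 0.335% later.

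WNT7A and WNT11 had other time courses. WNT7A, a ligand of the neural tube and the ectoderm, was at 1.23 and 0.713 CPM at E16, 1.46 and 1.36 at E18, 10.8 and 4.12 at E21, and lastly 0.372 and 0 at E28 (adjusted p = 0.00702). Both E21 libraries exceeded all others, and both E28 libraries were below all others. The neural tube progenitor class fell in the same interval from 4.49 and 1.59% of the cells at E21 to 0.0101 and 0% at E28. WNT11, a ligand of the polarity branch, was at 2.36 and 2.38 CPM at E16, 3.34 and 4.84 at E18, 8.58 and 6.86 at E21, and lastly 32.2 and 16.0 at E28 (adjusted p = 0.00255), with no overlap between stages.

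Among the receptors, FZD4 and FZD9 were highest at E28 and FZD10 was lowest there. FZD9 was at 0.326 and 0.4 CPM at E16, 0.799 and 0.530 at E18, 4.15 and 2.61 at E21, and lastly 7.88 and 9.36 at E28 (adjusted p = 0.00057), and each stage lay above the one before. FZD4 stayed between 0.0695 and 0.454 CPM in the 6 somite libraries and was at 3.42 and 4.43 in the myotome libraries (adjusted p = 0.00206). FZD10 was between 3.81 and 6.59 CPM in the somite libraries and at 0.930 and 0.640 at E28 (adjusted p = 0.00329). FZD2 passed the test with a small range of 39.4 to 75.7 CPM (adjusted p = 0.0371), and LRP6 ranged from 14.7 and 16.2 CPM at E16 to 41.3 and 38.1 at E28 (adjusted p = 0.0071). FZD1, at 0.0869 to 0.356 CPM, was not called, nor was FZD6, at 1.11 to 4.31 CPM.

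**Figure D1:**
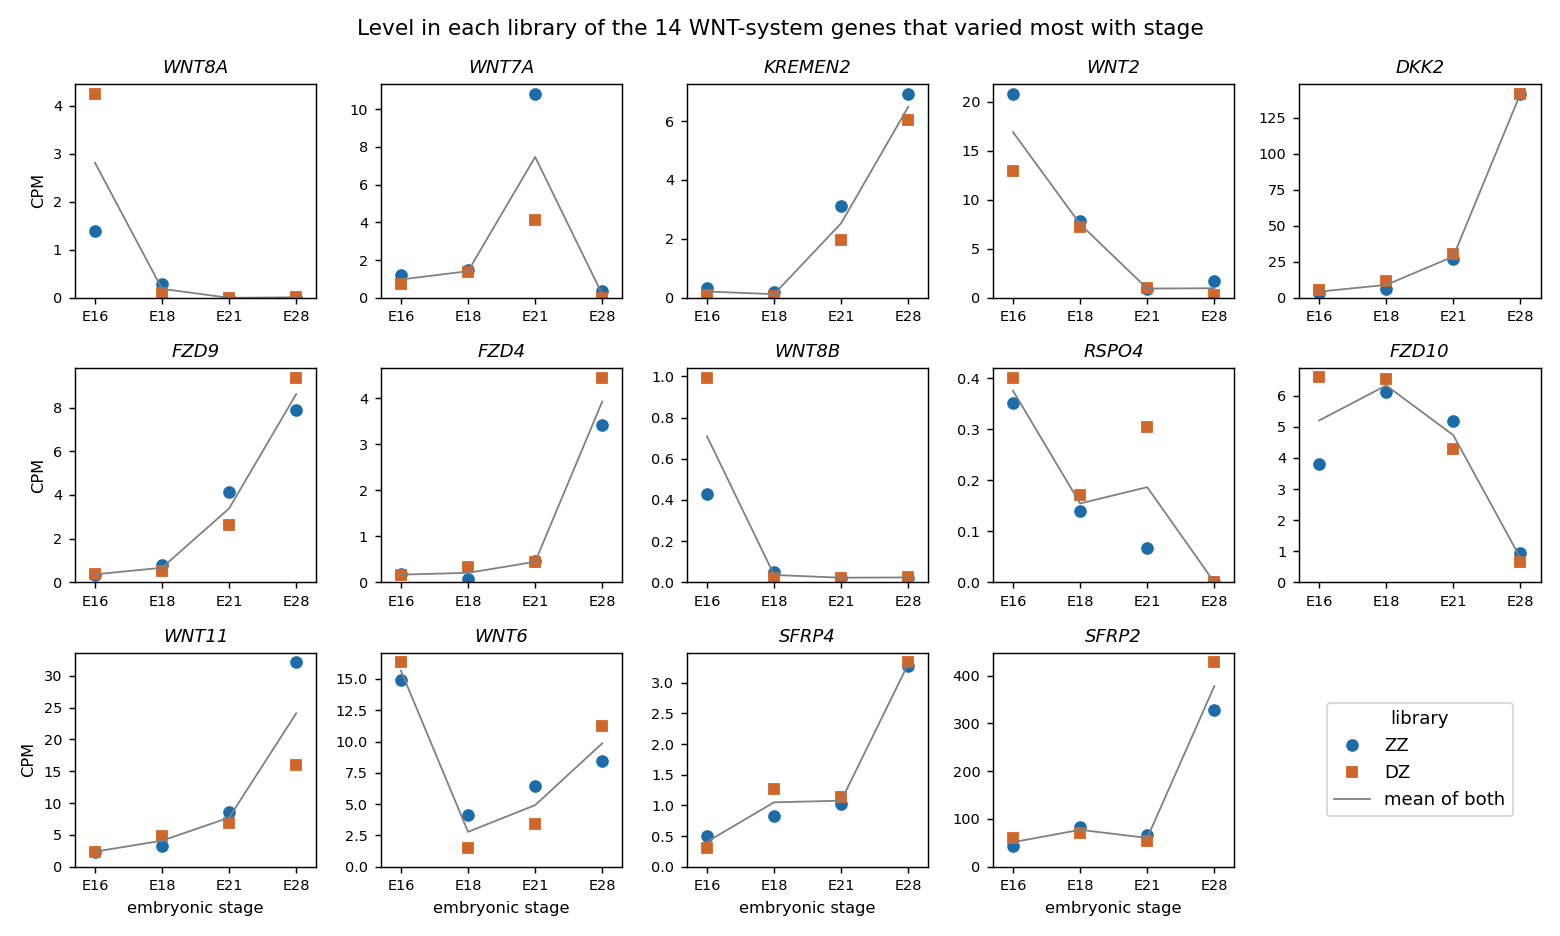
Level (CPM) of the 14 members with the largest stage difference among those past the stage test, plotted against embryonic stage, with a circle for each ZZ library, a square for each DZ library and a line through the mean of both. DKK2 rises to 142 and 142 CPM at E28 and WNT2 declines from 20.8 and 12.97 CPM at E16, while WNT7A has its highest values at E21.

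The secreted antagonists changed in both directions. DKK2 was at 3.49 and 5.13 CPM at E16, 6.04 and 11.9 at E18, 27.0 and 30.4 at E21, and lastly 142 and 142 at E28, with no overlap between stages (adjusted p = 0.000157). SFRP2 lay between 42.9 and 83.0 CPM in the somite libraries and at 327 and 429 in the myotome libraries (adjusted p = 0.000288). SFRP4 was at 0.502 and 0.313 CPM at E16, between 0.834 and 1.27 at E18 and E21, and at 3.28 and 3.34 at E28 (adjusted p = 0.00685). All 3 genes were therefore highest in the myotome libraries. SFRP1 took 148.9 and 191 CPM at E16, 293 and 368 at E18, 198 and 251 at E21, and lastly 496 and 680 at E28 (adjusted p = 0.000446), thus with a dip at E21. SFRP5 went the other way, from 35.9 and 34.0 CPM at E16 through 27.8 and 22.2 to 11.8 and 7.10 at E21 and 6.44 and 8.29 at E28 (adjusted p = 0.000595). DKK3, a divergent Dickkopf protein, was at 42.5 CPM in E21-ZZ, the remaining 7 libraries having 11.7 to 20.9, and did not pass the test of stage.

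Of the R-spondins, RSPO3 was at 39.3 to 48.6 CPM in the somite libraries and 93.7 and 74.4 in the myotome libraries (adjusted p = 0.00518). RSPO4 had 71 UMIs in all, was at 0.351 and 0.4 CPM at E16 and was not detected at E28 (adjusted p = 0.0258). KREMEN2 was at 0.326 and 0.104 CPM at E16, 0.191 and 0.0568 at E18, 3.11 and 1.96 at E21, and lastly 6.93 and 6.04 at E28 (adjusted p = 0.000621), and its relative KREMEN1 ranged more narrowly, from 1.46 and 1.304 CPM at E16 to 6.28 and 7.44 at E28 (adjusted p = 0.00376). Every E21 and E28 library exceeded every earlier library for both Kremen genes.

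Between successive stages, 4 of the 39 members passed the test from E16 to E18, where 4.7% of all genes did, 2.03% higher and 2.67% lower (edgeR, adjusted p under 0.05). SFRP1 rose by 0.79 ± 0.11 (log2 fold change ± SE) and LRP6 by 0.80 ± 0.16, WNT6 fell by 2.75 ± 0.45 and WNT8B fell by 4.29 ± 0.73, with adjusted p of 0.0210, 0.0432, 0.0282 and 0.0322. No member passed without E16-ZZ, without E16-DZ or without E18-DZ, 1 did without E18-ZZ and 8 did without either E28 library, and none passed with a mitochondrial limit of 5%. The step also separates the 2 software versions, and stage and version cannot be told apart in it.

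From E18 to E21, 8 members passed, 5 higher and 3 lower, against 21.2% of all genes (10.7% higher and 10.4% lower). That count lay near the share over all genes and is no result about the members as a set. KREMEN2 rose by 4.28 ± 0.49, FZD9 by 2.24 ± 0.33, DKK2 by 1.64 ± 0.24, DKK3 by 1.20 ± 0.29 and WNT5B by 1.02 ± 0.24, while WNT2 fell by 3.06 ± 0.63, SFRP5 fell by 1.52 ± 0.21 and SFRP1 fell by 0.65 ± 0.11 (adjusted p = 0.00371 to 0.031, edgeR). The count was 1 without E18-ZZ, 4 without E18-DZ and 5 without E21-ZZ. DKK3 lost its call without either E18 library or E21-ZZ, with a value of 0.64 without E21-ZZ, and WNT5B without any of the 4 libraries of the step. WNT2 lost it without either E18 library or E21-ZZ, SFRP1 and FZD9 without either E18 library, and DKK2 and SFRP5 without E18-ZZ. KREMEN2 kept its call whichever library was left out. With a mitochondrial limit of 5% DKK3 and WNT5B lost their calls, and SFRP1 lost its call without the breed term.

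From E21 to E28, that is from somite to myotome, 11 members passed, 8 higher and 3 lower, against 8.53% of all genes (4.31% higher and 4.23% lower). SFRP2 rose by 2.63 ± 0.19, SFRP1 by 1.37 ± 0.11, DKK2 by 2.32 ± 0.24, RSPO3 by 1.06 ± 0.16, FZD4 by 3.11 ± 0.55, FZD9 by 1.37 ± 0.31, WNT9A by 1.73 ± 0.34 and WNT11 by 1.62 ± 0.36. WNT7A fell by 5.36 ± 0.83, FZD10 fell by 2.58 ± 0.37 and FZD3 fell by 1.33 ± 0.18 (adjusted p = 0.00283 to 0.0428, edgeR). The count was 3 without E21-ZZ and 7 without E28-DZ. The FZD9 call was lost when any 1 of the 8 libraries was left out, FZD4 without any E21 or E28 library, and WNT9A without either E18 library, either E21 library or E28-DZ. FZD9 and WNT9A also lost their calls with a mitochondrial limit of 5%, and FZD9 with library totals in place of TMM scaling. WNT11 lost its call without either E16 library, either E21 library or E28-ZZ, and its value was 0.95 without E28-ZZ. RSPO3, WNT7A, FZD3 and FZD10 lost theirs without E21-ZZ, and FZD10 also without E28-DZ. SFRP1, SFRP2 and DKK2 kept their calls whichever library was left out.

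No breed difference passed the test. No member, and 0% of all genes, passed the test of DZ against ZZ with stage as a further term (edgeR). At an unadjusted p under 0.05 there were 3 members, SFRP1 with a log2 difference (DZ minus ZZ) of 0.35 ± 0.08, WNT5B with 0.41 ± 0.17 and KREMEN2 with -0.80 ± 0.31 (adjusted p = 0.711 to 0.81), and DESeq2 called SFRP1 alone. SFRP1 was higher in the DZ library at each of the 4 stages, KREMEN2 higher in the ZZ library at each of them, and WNT5B higher in DZ at 3 of 4. None of the 3 passed the adjustment over all genes in edgeR, which does not show that the breeds were alike.

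Other genes of the pathway were counted from lists by role. From E21 to E28 4.31% of all genes were higher and 4.23% lower, from E18 to E21 10.7% and 10.4%, and from E16 to E18 2.03% and 2.67%. From E21 to E28 the planar cell polarity list had 3 of 9 tested genes lower, CELSR3 (-2.74, log2), CELSR2 (-2.17) and CELSR1 (-1.75), and none higher. The destruction complex list had 2 of 11 lower, APC2 (-3.24) and GSK3B (-0.57), the nuclear effectors 2 of 10 higher, TLE2 (1.09) and TCF7L2 (0.68), and the other extracellular antagonists 2 of 11 higher, IGFBP4 (1.03) and SHISA2 (0.82), and 1 lower, SOST (-3.22). GPC3 (1.43) among 9 other receptors and MYC (1.38) among 15 feedback genes and targets were the calls of the remaining lists. From E18 to E21, 3 of 11 destruction complex genes rose, led by APC2 (2.501) and APC (0.74), and 2 of 10 nuclear effectors, TLE2 (0.77) and TCF7L2 (0.77), with none lower in either list. Of 11 other antagonists WIF1 (2.36) and SHISA2 (0.72) rose and BAMBI (-1.09) and DRAXIN (-0.99) fell. Of 9 polarity genes CELSR3 (1.55) rose and CELSR1 (-1.28) fell, and of 15 feedback genes and targets LGR5 (1.93), also the 1 call among 9 other receptors, rose and the posterior target CDX1 (-3.38) fell. From E16 to E18 SHISA3 (2.66) rose and BAMBI (-1.26) fell among 11 other antagonists, ZNRF3 (0.93) and DACT3 (0.89) rose and MYC (-1.60) fell among 15 feedback genes and targets, PYGO1 (1.01) and TLE1 (0.64) rose among 10 nuclear effectors, and LGR4 (1.04) rose among 9 other receptors. No polarity or destruction complex gene was called in that step. None of the 4 tested genes of ligand secretion and processing was called in any of these steps, with median log2 differences between -0.0402 and 0.0944.

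The gated classes located the members in cell types. Of 406 tests of 29 members in 14 classes, each against the mean of the other classes with the library as a block, 96 were higher and 49 lower (edgeR, adjusted p under 0.05 over 11776 genes). A gene could pass the filter on low counts through the sums in which it was high, which favours genes that differ. Without this filter 159 of 588 tests passed, among them 139 of the 145 calls. The fibroblast/connective tissue class had 14 members higher and none lower, against 29.2% of all genes called there (19.7% higher and 9.48% lower). In neural tube progenitors 13 members were higher and 4 lower, beside 40% of all genes (21.3% and 18.7%). Chondrogenic cells had 10 higher and none lower, beside 21.5% (13.6% and 7.93%), and the lateral plate/coelomic mesoderm 9 and none, beside 14.9% (11.8% and 3.16%). Epithelial cells had 7 higher and none lower, beside 20.5% (15% and 5.57%), and the sclerotome 5 and none, beside 12.1% (7.51% and 4.56%). All of these classes thus had more members higher than lower, as did the PAX3+ dermomyotome progenitors with 7 and 1, beside 11.6% (8.05% and 3.53%). The reverse held for erythroid cells with 1 higher and 7 lower, beside 52.7% (22.4% and 30.2%), and endothelial cells with 4 and 8, beside 50% (26.8% and 23.1%). It also held for neurons with 5 and 8, beside 57.7% (29.4% and 28.3%), muscle progenitors/myoblasts with 6 and 8, beside 26.6% (15.9% and 10.7%), and neural crest/glia with 4 and 6, beside 26.6% (15.8% and 10.7%). Myocytes had 6 higher and 5 lower, beside 40.5% (22.4% and 18.2%), and cardiac muscle 5 and 2, beside 22.6% (13.1% and 9.59%). The counts of these 2 classes lay near the shares over all genes and are no result about the members. The same holds for the lower counts of neurons, endothelial cells and erythroid cells and for the higher count of neural crest/glia. With a mitochondrial limit of 5%, 273 of the 406 tests could be made and 93 passed, 88 of them among the 113 of the 145 calls that were still tested.

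**Figure D2:**
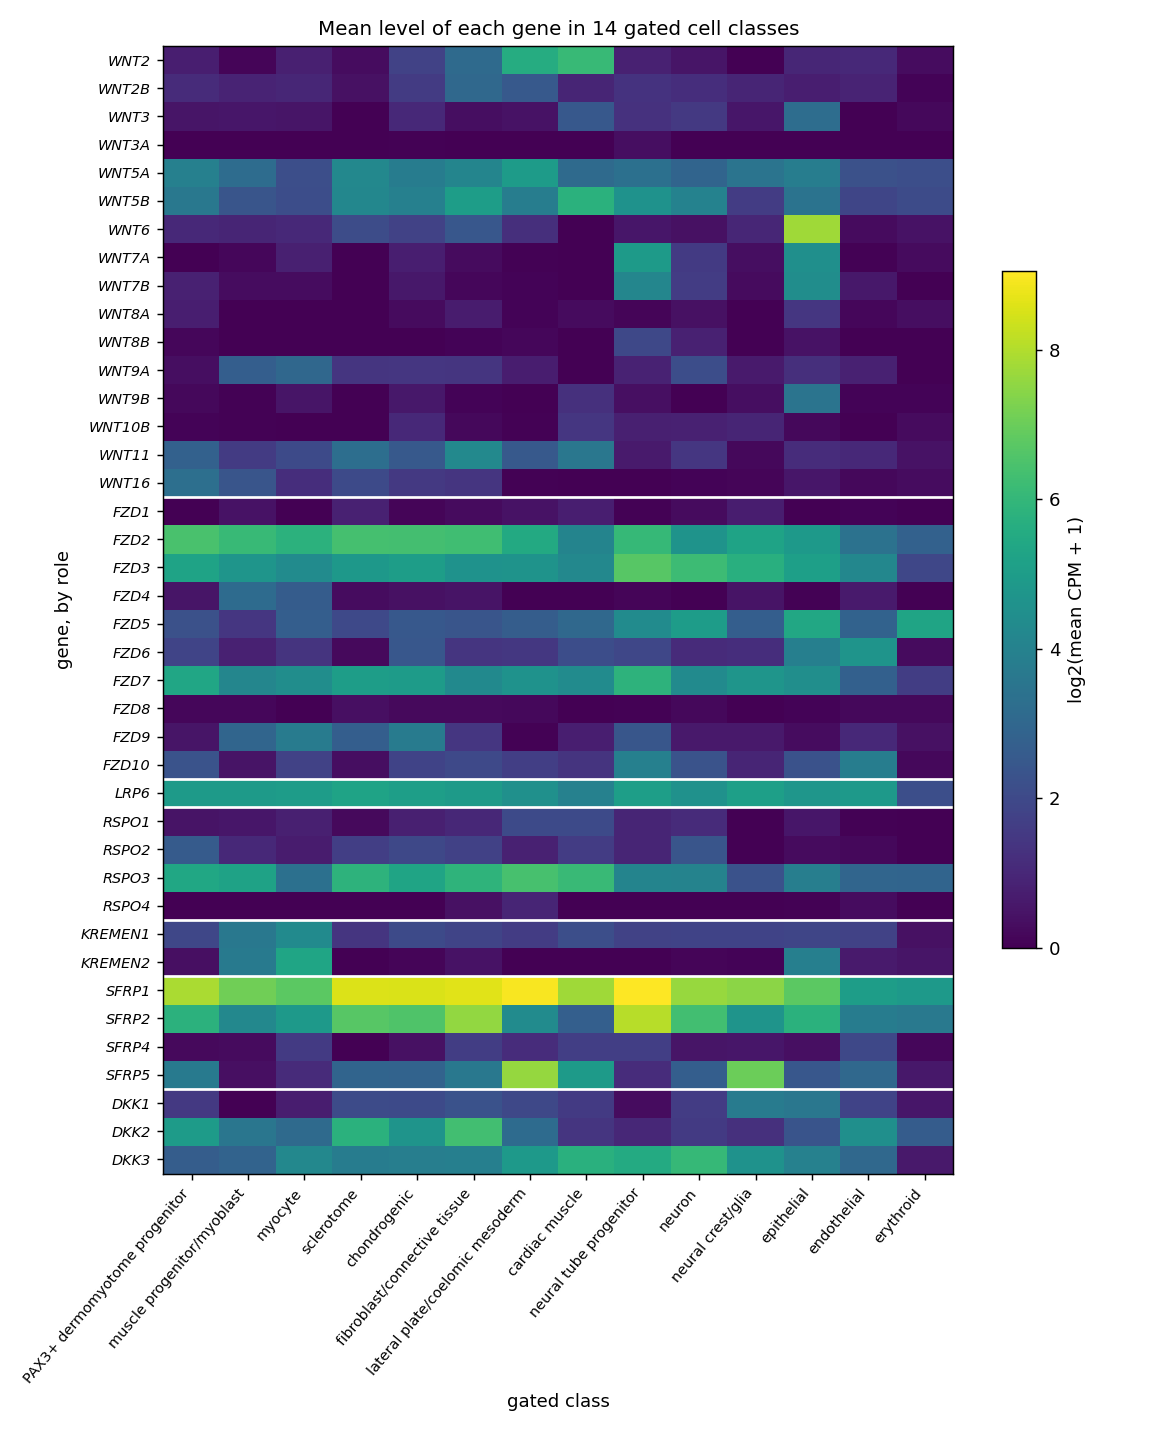
Mean level over libraries of each member with at least 10 UMIs (rows, ordered as ligands, Frizzled receptors, LRP6, R-spondins, Kremen receptors, SFRPs and Dickkopf genes) in 14 gated classes (columns), as log2(mean CPM + 1). WNT6 stands out in the epithelial class, WNT2 in cardiac muscle and lateral plate mesoderm, WNT7A and WNT7B in the epithelial and neural tube classes, and KREMEN2 in myocytes. The epithelial mean of WNT7A rests mainly on E21-ZZ, where the class held only 35 cells.

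Ligands were unevenly spread over the classes. In the epithelial class WNT6 was 8.17 ± 0.30 higher on the log2 scale (adjusted p = 2.5e-36), at 78.4 and 74.0 CPM at E16, 85.7 and 68.0 at E18 and 772 in E21-ZZ, where the class held only 35 cells. WNT7A (5.75 ± 0.43) and the Kremen receptor KREMEN2 (5.07 ± 0.44) were also higher there, and both again peaked in E21-ZZ with 86.9 and 66.1 CPM, against at most 6.78 and 1.73 in the 4 earlier libraries. WNT2 marked cardiac muscle (5.39 ± 0.27) at 57.3 and 77.4 CPM at E16 and 65.7 and 68.8 at E18. It was also higher in the lateral plate/coelomic mesoderm (4.75 ± 0.22) at 67.3 and 48.6 CPM at E16 and 36.2 and 40.4 at E18. The share of lateral plate cells was 10.49 and 8.09% at E16, 3.41 and 2.40% at E18 and at most 0.0326% later.

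Cardiac muscle further held more WNT5B (3.001 ± 0.40), at 92.1 and 82.5 CPM at E16 and 19.2 and 20.6 at E18, and more WNT11 (2.90 ± 0.57), a ligand known for its part in heart development, at 16.4 and 6.81 CPM at E16 and 13.7 and 6.88 at E18. In fibroblast/connective tissue cells WNT2 (3.06 ± 0.23), WNT11 (2.90 ± 0.25) and WNT2B (2.89 ± 0.27) led. WNT2 was at 13.2 and 6.59 CPM in these cells at E16, 18.2 and 16.1 at E18, 2.90 and 1.38 at E21, and lastly 2.35 and 0.717 at E28, whereas WNT11 was at 6.16 and 10.98, then 7.81 and 16.1, 15.1 and 10.49, and finally 45.5 and 31.6 CPM. Within this class WNT2 was therefore high early and WNT11 late, and both passed the test of stage within the class (adjusted p = 0.00014 and 0.0027, edgeR). WNT2B was at 3.45 to 13.2 CPM in these cells over the 8 libraries, and it was also higher in the lateral plate/coelomic mesoderm (2.19 ± 0.37), at 4.50 and 4.28 CPM at E16 and 5.92 and 4.14 at E18.

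WNT7A and WNT7B were the leading ligands of neural tube progenitors (5.55 ± 0.35 and 5.202 ± 0.42). WNT7A was at 2.56 and 0 CPM at E16, 9.19 and 8.74 at E18 and 92.7 and 62.3 at E21, and WNT7B at 2.56 and 7.52, 5.57 and 14.3, and 34.8 and 37.1. Both rose with stage inside the class (adjusted p = 2e-08 and 9.4e-05, edgeR). WNT8B was at 8.96 and 8.60 CPM in the E16 progenitors and was not detected in them at E18 or E21 (adjusted p = 0.00013). In neurons WNT7A (2.02 ± 0.50) and WNT9A (1.39 ± 0.55) were higher than in the other classes. WNT7A was at 2.60 CPM in E18-DZ and 5.26 and 5.48 at E21 and not detected in the other 4 libraries with the class, and WNT9A was at 0 to 7.38 CPM. DKK3 was higher in neurons as well (2.01 ± 0.27), at 28.0 and 48.1 CPM at E18, 101.5 with 79.5 at E21, and lastly 63.4 with 97.7 at E28, and at 44.4 in E16-DZ. The call of WNT9A in neurons was lost without E16-DZ, without either E18 library or without E28-DZ.

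WNT16, a ligand known from bone, marked mesodermal classes. In PAX3+ dermomyotome progenitors it was 4.08 ± 0.37 higher (adjusted p = 4.38e-14), at 2.08 and 5.72 CPM at E16, 8.36 and 25.1 at E18 and 1.20 and 11.06 at E21, and the DZ library held more at each of these stages. RSPO2 (3.01 ± 0.56) and DKK2 (1.76 ± 0.38) were the next members of these progenitors. RSPO2 was at 1.24 to 2.87 CPM at E16 and E18 and at 16.9 and 6.03 at E21, and the DKK2 call was lost without E21-ZZ. WNT16 was also higher in muscle progenitors/myoblasts (3.12 ± 0.49), the sclerotome (2.503 ± 0.61), fibroblast/connective tissue (2.19) and chondrogenic cells (1.45 ± 0.45), at most 7.81 CPM in any of these. In the sclerotome it was at 2.86 to 7.42 CPM at E16 to E21 and not detected at E28. The sclerotome also held more DKK2 (2.05 ± 0.40) and WNT11 (1.85 ± 0.44), the latter at 0 to 22.4 CPM over 7 libraries, and the WNT11 call was lost without E21-ZZ. Both calls were lost when 4 markers were needed. In muscle progenitors/myoblasts FZD4 (3.83 ± 0.51) and KREMEN2 (3.31 ± 0.37) led, and in myocytes KREMEN2 (5.91 ± 0.34), FZD4 (3.98 ± 0.51) and WNT9A (3.45 ± 0.46). In myocytes FZD4 was not detected at E18 and was at 2.99 and 2.57 CPM at E21 and 15.7 and 10.04 at E28, and WNT9A was at 1.94 and 0, 4.49 and 5.15, and 18.1 and 12.9 CPM at these stages.

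LRP6 was called in 4 classes, higher in neural tube progenitors (0.39, log2) and neural crest/glia (0.35) and lower in neurons (-0.50) and erythroid cells (-1.54). FZD2 and FZD7 were lower in endothelial (-1.89 and -1.73) and erythroid cells (-1.77 and -2.01). FZD5 marked erythroid cells (4.03 ± 0.29), at 12.9 to 55.4 CPM over the 8 libraries with a median of 40.5. FZD6 marked endothelial cells (3.64 ± 0.30), where it was at 2.28 and 5.51 CPM at E16, 5.62 and 8.26 at E18, 42.0 and 38.2 at E21, and lastly 34.1 and 61.6 at E28. DKK2 was also higher in endothelial cells (1.91 ± 0.31), at 3.43 to 43.7 CPM over the 8 libraries. That call was lost with a mitochondrial limit of 5%, at 1.51. FZD10 was higher in endothelial cells (2.98 ± 0.34), at 4.57 to 32.1 CPM, and in neural tube progenitors (2.66), and FZD3 in neural tube progenitors (1.68), neurons (1.10) and neural crest/glia (0.79 ± 0.16). In neural crest/glia FZD3 was at 25.6 to 30.7 CPM at E16 and E18, 67.6 and 60.7 at E21 and 81.7 with 80.8 at E28.

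FZD9 was the leading member of chondrogenic cells (2.43 ± 0.31, adjusted p = 2.33e-09). It was not detected in them at E16, and it stood at 0.760 and 0.562 CPM at E18, 9.60 and 6.44 at E21, and 33.9 with 49.9 at E28. No other value of FZD9 in a class with at least 20 cells exceeded those of the E28 chondrogenic cells. RSPO2 was also higher in chondrogenic cells (1.64 ± 0.53), at 0.760 to 6.18 CPM, though this call was lost without either E28 library.

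SFRP5 and DKK1 were the leading members of neural crest/glia, though the DKK1 call was lost with a mitochondrial limit of 5%, at 1.61. SFRP5 (4.59 ± 0.42) was at 5.12 and 8.85 CPM at E16, 7.29 and 9.40 at E18, 191 and 124 at E21, and lastly 319 and 368 at E28. DKK1 (2.89 ± 0.52) had no UMI in the E16 libraries nor in E18-ZZ, 1.084 CPM in E18-DZ, then 4.63 and 3.84 at E21, and 51.8 with 39.0 at E28. Both rose within the class (stage adjusted p = 6.7e-14 and 1.5e-07, edgeR). SFRP5 was also the leading member of lateral plate/coelomic mesoderm (5.47 ± 0.44), at 109 and 124 CPM at E16 and 277 and 276 at E18. In whole libraries SFRP5 fell over the same stages, as described above, while the lateral plate share declined. In fibroblast/connective tissue cells it went from 17.2 and 10.98 CPM at E16 to 1.96 and 1.15 at E28 (adjusted p = 2.6e-05).

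Within classes, 86 of 141 tests of stage on members passed in 10 classes with at least 6 libraries. The members called were 16 of 25 in fibroblast/connective tissue (37.5% of all genes called there), 11 of 16 in neural tube progenitors (19.3%), 10 of 10 in neural crest/glia (35.5%), 10 of 19 in chondrogenic cells (29.7%), 9 of 14 in neurons (32.8%), 8 of 16 in myocytes (13.6%), 8 of 14 in endothelial cells (28.1%), 7 of 12 in PAX3+ dermomyotome progenitors (20%), 5 of 12 in the sclerotome (15.9%) and 2 of 3 in erythroid cells (12.8%). Neural crest/glia was the only class in which every member tested was called. In these tests a member could pass the filter on low counts through the stage at which it was high. That favours members that differ with stage, and no fit without the filter was run here.

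SFRP1 and SFRP2 rose towards E28 inside mesenchymal classes. SFRP1 was at 105 and 125 CPM in fibroblast/connective tissue cells at E16, 312 and 255 at E18, 371 and 409 at E21, and lastly 635 and 1003 at E28 (adjusted p = 3.8e-05). SFRP2 was at 12.8 and 8.78 CPM, 22.7 and 17.2, 60.7 and 53.0, and 519 and 836 in the same cells (adjusted p = 8.5e-08), with no overlap between stages. DKK2 was at 6.16 and 19.8, 9.30 and 28.0, 55.9 and 43.9, and 196 and 270 CPM (adjusted p = 1.5e-05). In the sclerotome class DKK2 rose from 0 in E16-ZZ through 10.7 and 15.2 at E18 and 49.95 and 51.3 at E21 to 85.6 and 169 CPM at E28. Erythroid cells, which are not known to make these proteins, held SFRP1 at 7.77 to 20.5 CPM until E21 and 77.3 and 60.7 at E28, SFRP2 at 52.4 and 17.3 at E28 and DKK2 at 32.4 and 8.67 at E28. All 3 genes were thus higher in erythroid cells at E28 too, always below the fibroblast level of the same library, and the part of free RNA in the E28 values of other classes was not tested.

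In neural tube progenitors SFRP1 and SFRP2 were lowest at E21. SFRP1 was at 574 and 462 CPM in the progenitors at E16, 584 and 906 at E18 and 331 and 318 at E21, and SFRP2 at 333 and 294, 280 and 289, and 245 and 186 (adjusted p = 0.00042 and 0.016, edgeR). DKK3 went the other way in these cells, at 17.9 and 11.3 CPM at E16, 20.1 and 18.8 at E18 and 143.6 with 62.3 at E21 (adjusted p = 2.47e-07). SFRP1 of the progenitors was thus higher at E18 than at E16 in each breed before it was lower at E21. The mix of the class also changed, with 103 and 80 dorsal beside 264 and 233 ventral cells at E18 and 181 and 60 beside 138 and 36 at E21. Within the ventral cells SFRP2 was at 407.2 and 295 CPM at E16, 298 and 299.9 at E18 and 352 with 357 at E21, and SFRP1 at 604.1 and 595, 773 and 1120, and 621 with 653. The ventral values of E21 were thus not the lowest for either gene. In the dorsal cells, whose values per gene follow further on, both genes were lowest at E21. The 4 SFRPs summed were there at 267 CPM in E16-DZ, 307 and 540 at E18 and 107 and 128 at E21. Any part of the mix in the class values was not tested. In neurons SFRP1 went from 416 in E16-DZ through 277 and 419 at E18 and 68.4 and 95.05 at E21 to 63.4 and 49.8 CPM at E28. In PAX3+ dermomyotome progenitors SFRP1 stayed at 204 to 262 CPM and was not called, whereas DKK2 was at 1.04 to 3.41 CPM at E16 and E18 and at 104 and 67.4 at E21 (adjusted p = 1.7e-09), and WNT5B at 2.08 to 3.41 and then 20.5 and 37.2 (adjusted p = 9.6e-06).

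**Figure D3:**
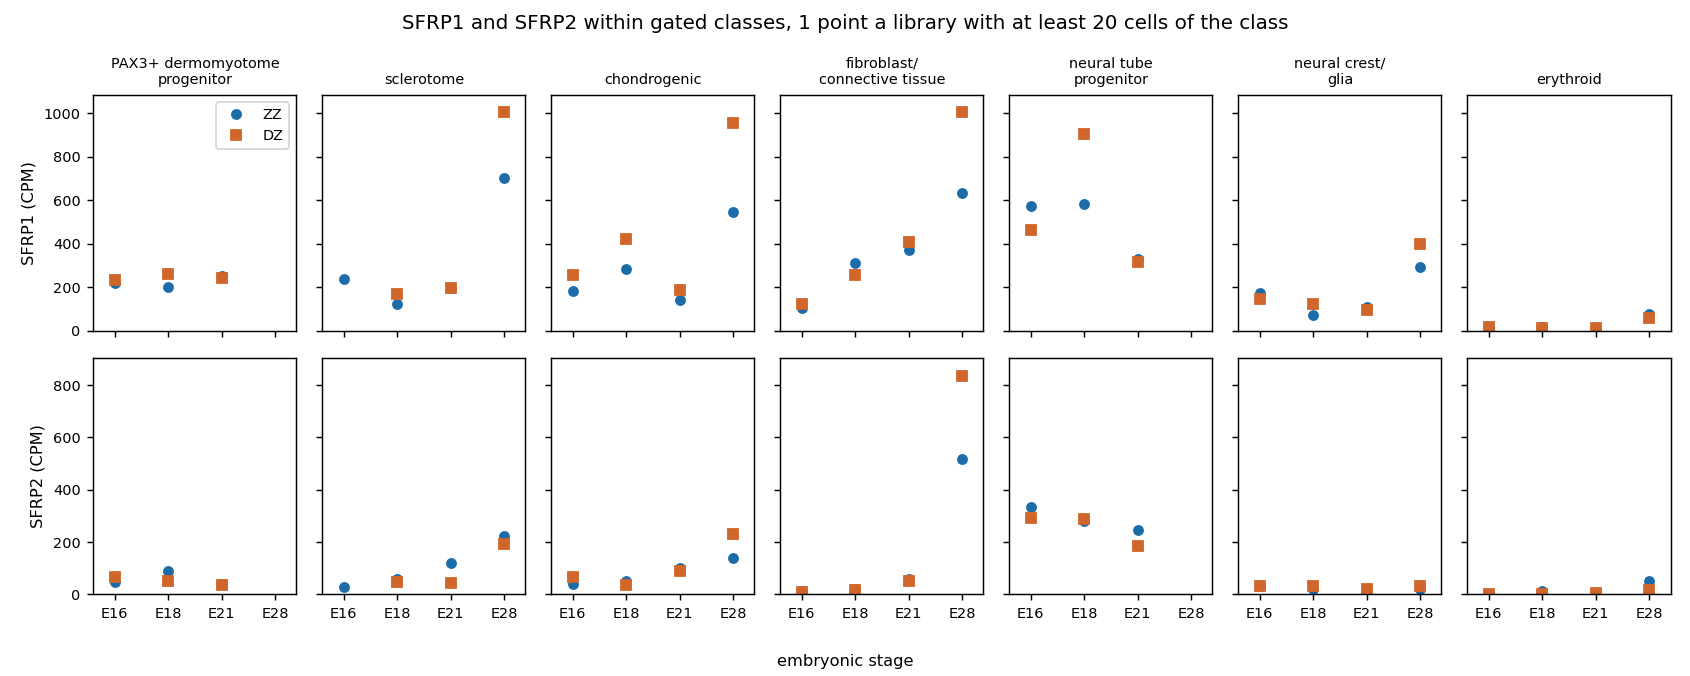
SFRP1 (upper row) and SFRP2 (lower row) in CPM against embryonic stage within 7 gated classes, with a circle for each ZZ and a square for each DZ library that held at least 20 cells of the class. SFRP2 climbs to 519 and 836 CPM in E28 fibroblast/connective tissue cells, reaches at most 33.6 CPM in neural crest/glia, and is lowest at E21 in neural tube progenitors, at 245 and 186 CPM, though not in their ventral cells, at 352 and 357 CPM there. In their dorsal cells, which are not drawn, SFRP2 is lowest at E21 as well.

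The myogenic sequence was read as 2 steps, from PAX3+ dermomyotome progenitors to muscle progenitors/myoblasts and from these to myocytes. PAX3+ cells stands for the cells of that class, in which PAX3 itself was not required. The first class had 20 or more cells at E16 to E21, the second at E21 and E28 and the third from E18, so that class and stage were only partly separable and the first 2 classes shared a library only at E21. In the first step 3 of 29 members were higher and 9 lower, against 10.4% of all genes, 4.77% higher and 5.67% lower (edgeR, adjusted p under 0.05). Here too a gene could pass the filter on low counts through the sums in which it was high, which favours genes that differ. Without this filter 11 of 42 members passed, all of them among the 12 calls, and FZD7 lost its call. The median log2 difference was -0.81 over the members and 0.01 over all genes.

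The 3 members that were higher, WNT9A, FZD4 and KREMEN2, had 3 UMIs each in the PAX3+ class. Pooled ratios sum the UMIs of each class over its libraries, E16 to E21 against E21 and E28, without the library block. They therefore mix stage with class, and the log2 differences of the fit, which holds the block, need not match them. WNT9A held 99 UMIs in muscle progenitors/myoblasts, a pooled ratio of 20.8 with an exact 95% counting interval of 6.90 to 102.4 (log2 difference in the fit 3.51 ± 0.83, adjusted p = 0.00204). It was absent from both E21 PAX3+ sums and at 9.69 and 3.04 CPM in the E21 muscle progenitors/myoblasts, and at 2.81 and 6.83 at E28. KREMEN2 had a ratio of 42.2 (14.2 to 206.2), with 1.20 and 0 CPM in PAX3+ cells and 17.2 and 8.25 in muscle progenitors/myoblasts at E21 (2.62 ± 0.71, adjusted p = 0.00901). For both genes the direction was seen within each E21 library.

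FZD4 had a ratio of 43.6 (14.7 to 213.3; 3.04 ± 0.91, adjusted p = 0.0205), but at E21 the 2 classes overlapped, at 1.20 and 1.01 CPM in PAX3+ cells and 2.15 and 0.434 in muscle progenitors/myoblasts. Its level in the latter was 14.2 and 14.7 CPM at E28, where the PAX3+ class had too few cells, so for FZD4 class and stage cannot be told apart. The FZD4 call was lost without E16-DZ or without E18-DZ, that of KREMEN2 without either E21 library. All 3 calls were lost when 4 markers were needed in place of 3.

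The lower members comprised antagonists, R-spondin 2, WNT11 and 3 Frizzled receptors. DKK1 had 28 UMIs in PAX3+ cells and none in muscle progenitors/myoblasts (adjusted p = 0.0155, edgeR). As a pooled ratio, which mixes stage with class, it was at least 14.8-fold lower with 3 UMIs over the group as the floor. SFRP5 differed by -5.52 ± 1.44, with 6.02 and 2.01 CPM in PAX3+ cells and 0.538 and 0.434 in muscle progenitors/myoblasts at E21. SFRP2 differed by -2.41 ± 0.64 (41.0 and 35.2 against 21.5 and 17.8 CPM at E21) and DKK2 by -2.43 ± 0.56 (104 and 67.4 against 5.38 and 13.9). At E21 each of these 3 antagonists was lower in both libraries.

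RSPO2 differed by -3.51 ± 0.86 (16.9 and 6.03 against 1.076 and 2.17 CPM at E21), WNT11 by -2.49 ± 0.57 (3.61 and 3.02 against 2.15 and 2.17), FZD10 by -2.67 ± 0.85 (2.41 and 1.01 against 0.538 and 0.868), FZD6 by -2.35 ± 0.76 (3.61 and 0 against 1.076 and 0.868) and FZD7 by -0.82 ± 0.28 (28.9 and 29.2 against 22.6 and 20.4). FZD6 thus did not keep its direction in E21-DZ. Adjusted p of the 9 lower members were 0.00125 to 0.0439 (edgeR). The FZD7 call was lost when any of 7 libraries was left out, all but E21-ZZ, FZD10 without any of E16-ZZ, E18-ZZ, E21-ZZ and both E28 libraries, FZD6 without either E18 or either E28 library, DKK1 without E18-ZZ or E28-DZ, DKK2 without E21-ZZ and SFRP2 without E28-ZZ. In all, 7 members passed without E28-ZZ or without E28-DZ. With a mitochondrial limit of 5%, 21 members were tested and 5 passed, 4 of them among the 8 of the 12 calls still tested, and with 4 markers 26 were tested and 6 passed, all among the 11 calls still tested. Without the library block WNT11 (-1.67), SFRP2 (-1.62), DKK2 (-1.25), RSPO2 (-2.14) and FZD6 (-1.80) lost their calls.

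In the second step 5 members were higher in myocytes and 1 lower, against 22.6% of all genes (12% higher and 10.6% lower). Both directions together lay near the share over all genes, which is no result about the members as a set. Without the filter on low counts 7 of 42 members passed, among them the same 6. KREMEN2 was at 17.2 and 8.25 CPM in muscle progenitors/myoblasts and 51.6 and 30.9 in myocytes at E21, and at 12.6 and 9.61 and then 105 and 46.5 at E28 (2.42 ± 0.36, adjusted p = 2.17e-07). The 2 classes did not overlap at either stage, although the 2 E18 myocyte sums held only 1.94 and 0 CPM. KREMEN1 was at 8.07 and 6.94 against 17.2 and 15.4 CPM at E21 and 13.1 and 17.6 against 32.6 and 22.3 at E28 (1.13 ± 0.41, adjusted p = 0.0362). Both Kremen receptors therefore were higher in myocytes of each library with both classes. Many cells also met the marker list of another class, 132 of 205 and 144 of 213 myocytes at E21 and 226 of 293 and 425 of 549 at E28. So did 394 of 952 and 845 of 1780 muscle progenitors/myoblasts at E28.

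FZD9 was at 9.15 and 3.91 CPM in muscle progenitors/myoblasts and 22.5 and 12.2 in myocytes at E21, and at 4.69 and 8.91 against 19.8 and 17.6 at E28 (1.75 ± 0.43, adjusted p = 0.00121). FZD5 was at 3.23 and 2.17 against 5.24 and 2.57 CPM at E21 and 0.750 and 0.579 against 8.74 and 7.22 at E28 (2.40 ± 0.73, adjusted p = 0.0108). DKK3 was at 15.6 and 4.77 against 18.7 and 17.4 CPM at E21 and 2.999 and 2.20 against 16.3 and 26.1 at E28 (2.26 ± 0.53, adjusted p = 0.000722). The agonist RSPO3 was the member that fell, at 40.9 and 52.5 against 8.98 and 9.66 CPM at E21 and 38.4 and 13.8 against 12.2 and 18.2 at E28 (-1.49 ± 0.44, adjusted p = 0.00845), though not in E28-DZ. The calls were lost for FZD5 without either E28 library, for RSPO3 without either E21 library and for KREMEN1 without E21-ZZ, E21-DZ or E28-ZZ. Without the library block KREMEN2 (2.02), FZD9 (1.24) and KREMEN1 (0.97) lost their calls, and KREMEN1 also with library totals in place of TMM scaling.

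**Figure D4:**
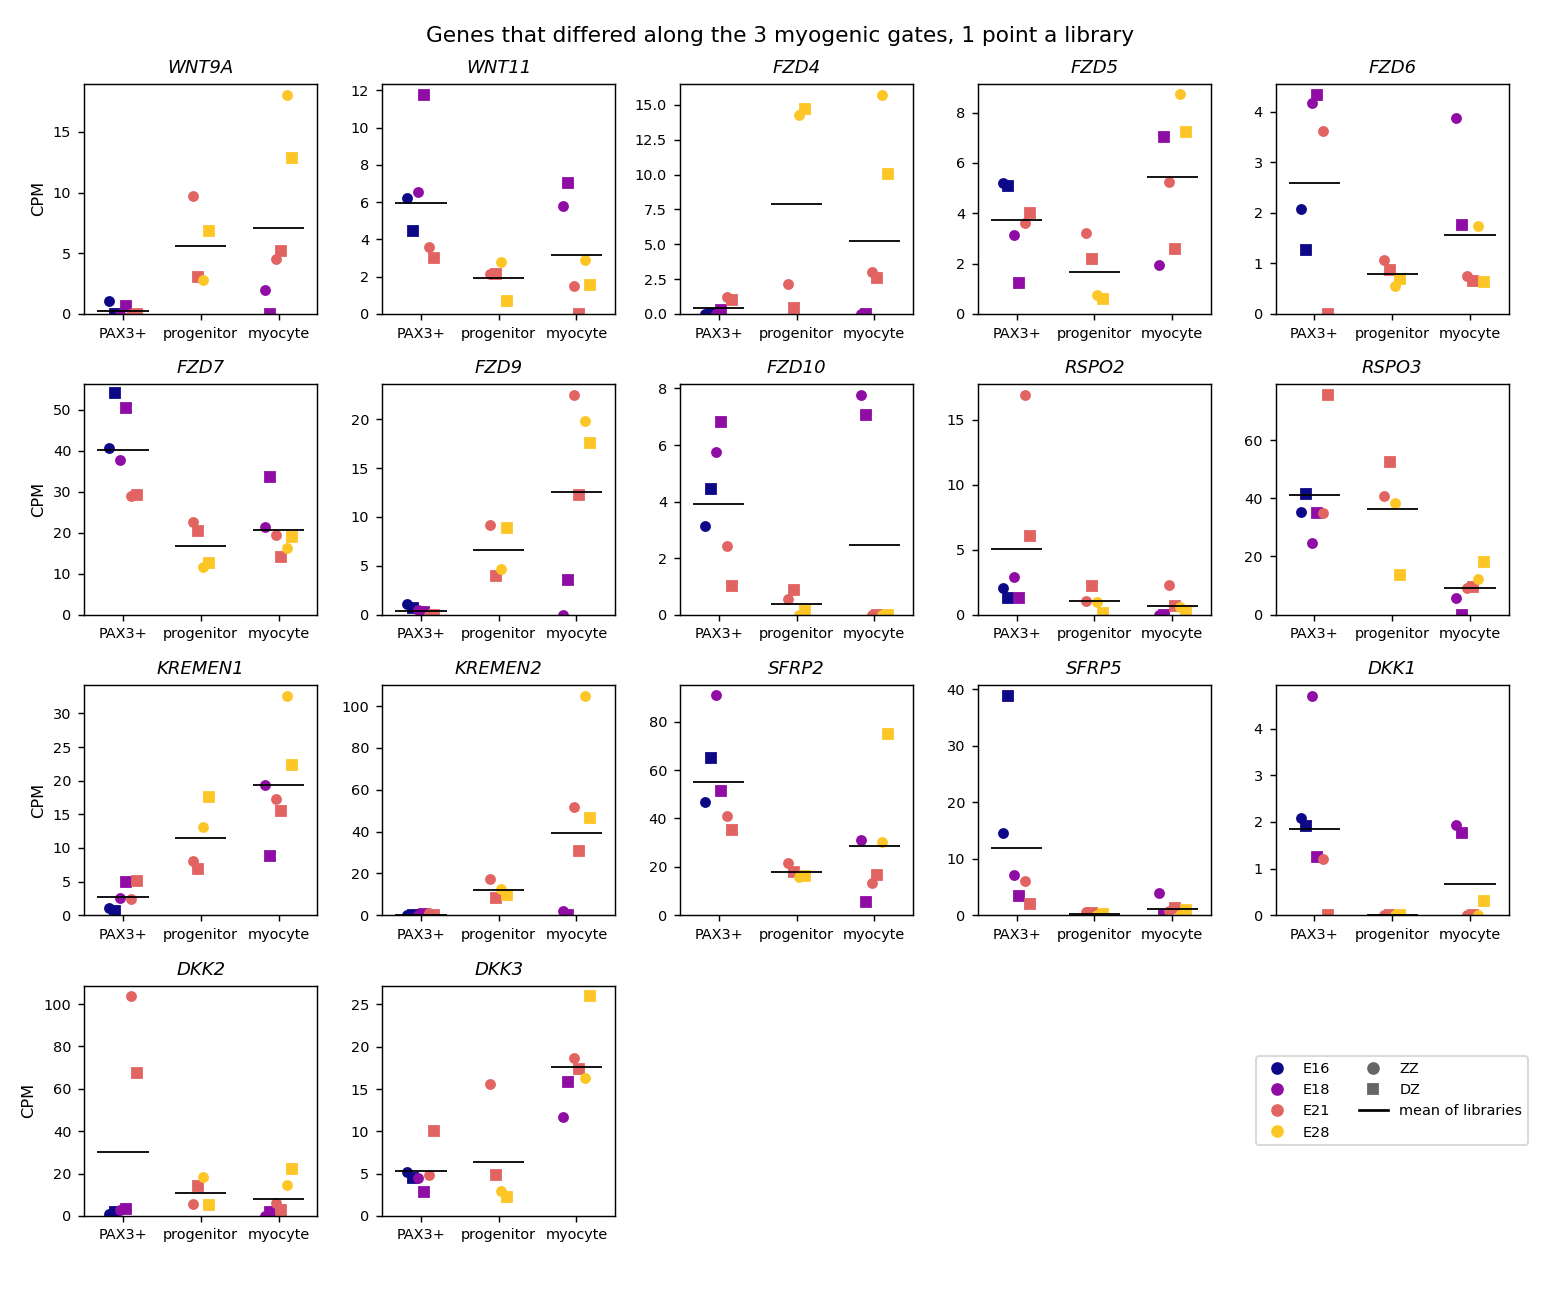
Level (CPM) of the 17 members called at either myogenic step in the 3 myogenic classes, with 1 point a library coloured by stage (circle ZZ, square DZ) and a bar at the mean of the libraries. KREMEN2 reaches 105 and 46.5 CPM in E28 myocytes and lies near 0 in PAX3+ cells, and FZD4 is high in the E28 libraries of both later classes.

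Among WNT pathway genes beyond the members, several lists had lower genes in the first step, where 4.77% of all genes were higher and 5.67% lower. The planar cell polarity list had 5 of 9 genes lower and none higher, among them CELSR3 (-4.35 ± 1.12), DAAM2 (-2.03 ± 0.51) and PRICKLE2 (-1.92 ± 0.40, named after its values were seen because it was higher again in the next step), beside a median of -1.50 for the list. The feedback and direct target list had 4 of 13 lower, among them SP5 (-3.53 ± 1.02) and NKD1 (-2.53 ± 0.57), and MYC higher (1.24 ± 0.32). APCDD1 (-2.16 ± 0.57) and IGFBP4 (-1.51 ± 0.44) were the calls among 9 other antagonists, APC2 (-3.20 ± 0.97) and BTRC (0.77 ± 0.23) among 11 destruction complex genes, ROR2 (-1.17 ± 0.36) among 9 other receptors and LEF1 (-1.40 ± 0.48), which is also a target, among 10 nuclear effectors. Median log2 differences were 0.0068 for the other receptors, beside 0.0059 over all genes, -0.67 for the 2 genes of ligand secretion, -0.0289 for the destruction complex, -0.29 for the nuclear effectors, -0.48 for the feedback genes and targets and -1.005 for the other antagonists. From muscle progenitors/myoblasts to myocytes the polarity genes PRICKLE2 (2.04 ± 0.39) and PRICKLE1 (1.98 ± 0.35) and the feedback inhibitor NKD1 (2.60 ± 0.56) were higher, as were GPC4 (1.72 ± 0.43), SHISA2 (1.59 ± 0.40) and CTNNB1 (0.86 ± 0.19), the gene of beta-catenin. DRAXIN (-1.74 ± 0.57), GPC3 (-1.69 ± 0.46), MYC (-0.93 ± 0.31), TCF7L2 (-0.68 ± 0.22), PYGO1 (-0.62 ± 0.24) and DAAM1 (-0.55 ± 0.20) were lower.

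Neural tube progenitors were split into dorsal and ventral cells by markers that contain no member. NKX6-1 served both in the gate of the class and in the ventral list. In the 5 libraries with at least 20 cells of each kind, 8 of 11 members tested differed, 3 higher dorsally and 5 ventrally, against 3.44% of all genes, 1.46% higher dorsally and 1.97% ventrally (edgeR, library as a block). E16-ZZ had 11 dorsal cells and did not enter. A gene could pass the filter on low counts through 1 of the 2 kinds of cells alone, which favours genes that differ. Without this filter 11 of 37 members passed, among them the same 8.

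The dorsal members were a ligand, an agonist and a receptor. WNT7B was at 20.04 CPM in dorsal and 3.42 in ventral cells of E16-DZ, 17.4 and 39.2 against 2.27 and 3.07 at E18, and 49.9 and 70.3 against 8.25 and 10.2 at E21 (3.01 ± 0.31, adjusted p = 9.76e-08). RSPO3 was at 23.4 against 17.1 CPM in E16-DZ, 31.1 and 21.2 against 3.96 and 2.05 at E18 and 29.2 and 42.8 against 0 and 5.10 at E21 (2.49 ± 0.39, adjusted p = 9.3e-05). FZD10 was at 26.7 against 11.4 CPM, 46.0 and 39.2 against 7.93 and 6.65, and 21.9 and 30.6 against 3.302 and 0 (2.37 ± 0.29, adjusted p = 2.78e-06). For each of the 3 genes the lowest dorsal value exceeded the highest ventral value. All 3 could pass the filter on low counts through their dorsal sums alone, so this separation was partly fixed by the filter.

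The ventral members were led by antagonists. SFRP1 was at 150 CPM in dorsal and 595 in ventral cells of E16-DZ, 229 and 407 against 773 and 1120 at E18, and 54.8 and 91.7 against 621 and 653 at E21 (-2.09 ± 0.16, adjusted p = 2.91e-10). SFRP2 was at 110 against 295 CPM, 75.9 and 128 against 298 and 300, and 49.9 and 30.6 against 352 and 357 (-1.93 ± 0.17, adjusted p = 4.45e-09). For both SFRPs the 2 groups of sums did not overlap. WNT5B was at 20.04 against 33.1 CPM, 7.47 and 11.6 against 21.0 and 36.3, and 3.65 and 9.17 against 46.2 and 25.5 (-1.78 ± 0.31, adjusted p = 0.000318). DKK3 (-1.34 ± 0.22, adjusted p = 0.000154) was at 62.1 and 30.6 against 218 and 107 CPM at E21 and nearly equal in E16-DZ, at 10.0 against 10.3. Its call was lost without E21-ZZ. FZD7 (-0.78 ± 0.16, adjusted p = 0.0021) was at 30.1 to 55.0 CPM dorsally and 44.6 to 107 ventrally, and its call was lost without E18-DZ.

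FZD2 (-0.03 ± 0.15), FZD3 (-0.12 ± 0.13) and LRP6 (-0.30 ± 0.20) were tested and not called. WNT1 and WNT3A, ligands known from the roof plate, had no UMI or too few for any statement, WNT1 none in the dorsal sums and WNT3A 3.34 CPM in E16-DZ and 1.22 in E21-ZZ. WNT7A, below the filter, was higher in ventral than in dorsal cells in 4 of these libraries, at 57.2 and 27.5 CPM dorsally and 114 and 123 ventrally at E21, and was at 0 in both of E16-DZ. Of 36 other pathway genes tested, 7 were higher and 3 lower dorsally, beside 1.46% and 1.97% of all genes, with WLS (2.15 ± 0.20), the carrier of WNT proteins to the cell surface, NKD1 (1.94 ± 0.20), TNFRSF19 (1.90 ± 0.30), DRAXIN (1.43 ± 0.21), AXIN2 (1.23 ± 0.23), TPBG (1.09 ± 0.28) and ZNRF3 (1.01 ± 0.21). AXIN2, NKD1, TNFRSF19 and ZNRF3 are known targets or feedback regulators of beta-catenin signalling. TLE4 (-1.18 ± 0.16), DAAM1 (-0.99 ± 0.11) and LGR4 (-0.60 ± 0.15) were lower dorsally.

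**Figure D5:**
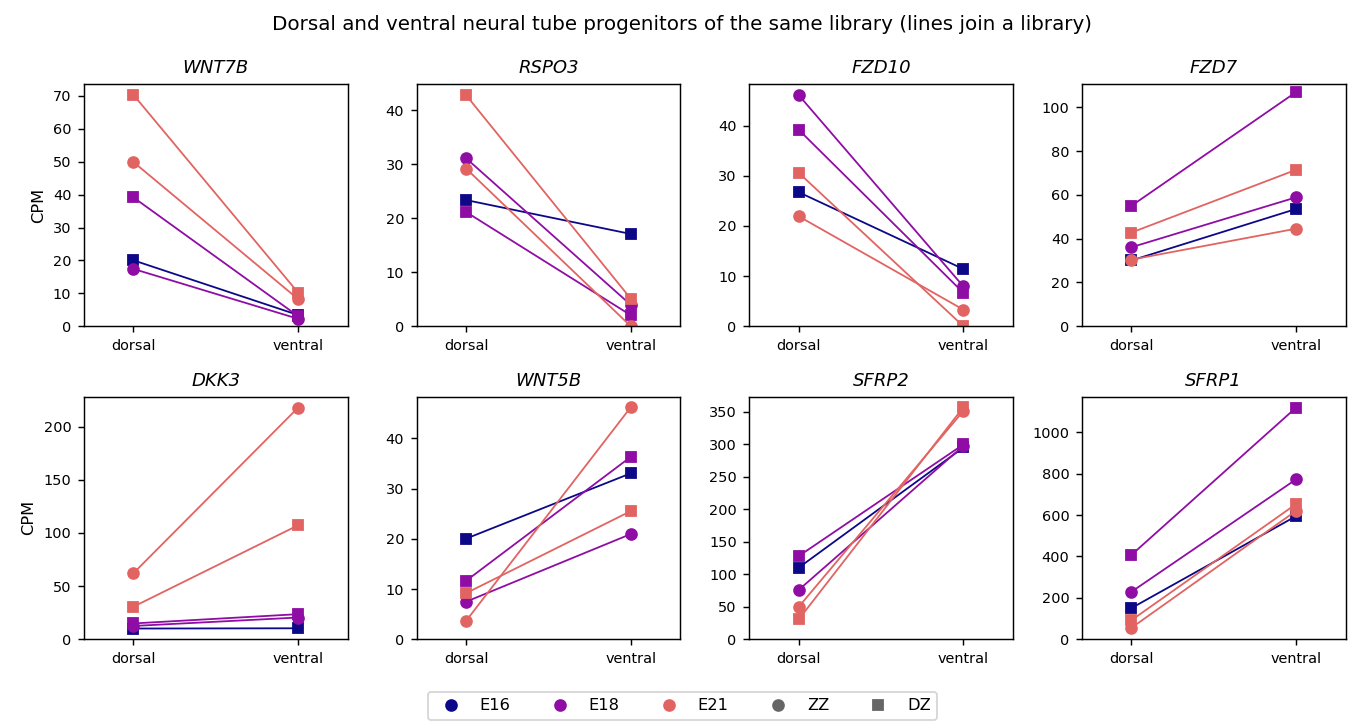
Level (CPM) of the 8 members that differed between dorsal and ventral neural tube progenitors, with lines joining the 2 kinds of cells of a library (colour for stage, circle ZZ, square DZ). WNT7B, RSPO3 and FZD10 lie higher dorsally in all 5 libraries, and SFRP1, SFRP2, WNT5B, FZD7 and DKK3 higher ventrally, DKK3 by little in E16-DZ (10.0 against 10.3 CPM).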

How the data were processed

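Droplet single-cell RNA sequencing of 8 libraries (4 stages, 2 breeds, 1 library each) was used as the deposited UMI counts per gene and barcode, which the authors made with Cell Ranger per the submitters' notes (3.1.0 for both E16 libraries, 3.0.2 for the other 6) on Sscrofa11.1 with Ensembl genes. Member positions and promoters were taken from RefSeq on the same assembly. Groups followed the sample labels. The members, marker lists and pathway lists were chosen with earlier results of these data known.

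Cells with at least 200 genes, at most 30000 UMIs and at most 10% mitochondrial UMIs were kept. The automatic threshold of Scrublet (in scanpy 1.11.5) marked 325 barcodes, 320 of them in E21-ZZ, and was not used. Instead a fixed share of top-scoring barcodes was dropped in each library, 0.8% for each 1000 deposited barcodes, 8247 in all. A cell joined the class of whose usable markers the largest share was detected, with at least 3 detected, and 830 ties stayed unassigned. A marker found in over 30% of cells was left out, a limit set after seeing the data that touched no member.

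Counts were summed per library, or per class and library (at least 20 cells), and tested with edgeR 4.0.16 (R 4.3.3) by quasi-likelihood with TMM scaling, filterByExpr and Benjamini-Hochberg adjustment at 0.05 over all genes tested. Stage fits held the breed as a term, and class fits the library as a block (classes in at least 3 libraries, stage within a class in at least 6). Log2 differences carry their SE. The code was tested on simulated data. Libraries, not cells, were the replicates. Each is a pool of 5 embryos of 1 sow, and no breed had a second pool at any stage. In stage fits the p-values therefore rest on breed by stage differences together with the spread between pools. In fits with the library as a block they rest on how differences between classes vary from library to library. Intervals on UMI counts cover counting error only. Library sums of 39852689 to 57568895 UMIs set the precision. UMI totals of genes are given as counts only, since 3′ counts are not per length.

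Values per library, or their range, were given for at most 14 members past the stage test with the largest stage differences, for the 3 members with the largest differences in each class, for all members called at the myogenic steps, and for the 2 pathway genes with the largest change per direction and list. Members under 10 UMIs were named with their count. Other genes were named after their values were seen. Alternatives comprised DESeq2 1.42.0, other filters and scalings, no doublet removal, 4 markers, no library block and each library left out.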

Additional observations from a re-analysis of the deposited data

Results flagged for a closer look

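In 5 members, both libraries of E28 lay above both of E16 in one class and below them in another class. These differences between classes were not tested. Values are the mean CPM at E28 minus that at E16 within the class. SFRP2, a secreted WNT antagonist, went up by 666.792 in fibroblast/connective tissue, 133.627 in chondrogenic cells, 31.678 in erythroid cells and 5.938 in endothelial cells, and changed by -5.649 in neural crest/glia. SFRP5 changed by -12.522 in fibroblast/connective tissue and -8.588 in endothelial cells, against 336.203 in neural crest/glia. The receptor FZD3 changed by -17.835 in chondrogenic cells, against 15.876 in fibroblast/connective tissue and 53.231 in neural crest/glia. FZD10 changed by -4.768 in fibroblast/connective tissue and 8.705 in endothelial cells. The ligand WNT5A changed by -11.076 in chondrogenic cells and -4.632 in fibroblast/connective tissue, against 8.292 in neural crest/glia. SFRP2 and SFRP5 thus moved in opposite directions in neural crest/glia and in fibroblast/connective tissue.

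A gate fixed with tail bud/presomitic markers held 42 cells, 39 of them at E16, too few for any comparison of the report. Its cells rest mainly on TBX6, RIPPLY2, CDX2, DLL3 and CDX1, found in 0.805 to 2.02% of all cells, whereas TBXT was found in 0.034% and MSGN1 in 0.001%, so the label is that of the list and not an established identity. WNT8A was at 159.364 CPM in these cells (49 UMIs, exact Poisson 95% interval 117.898 to 210.688) against 1.306 in the rest of the same libraries. RSPO3 was at 269.943 CPM (83 UMIs, 215.008 to 334.635) against 42.283. WNT5B was at 104.075, DKK1 at 35.776, FZD10 at 39.028, WNT7B at 19.514 and WNT9A at 16.262 CPM, against 13.81, 3.075, 5.866, 1.682 and 0.8. These 7 genes were picked because they were higher in the gate, so their shared direction is no result. WNT5A was also higher, at 71.6 CPM (22 UMIs, 44.8 to 108.3) against 18.2. SFRP2 was at 29.3 CPM (9 UMIs, 13.4 to 55.6) against 66.0, and SFRP5 had no UMI, which allows up to 11.997 CPM by the same interval, against 29.7. The intervals cover counting error only.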

How the results depend on the processing

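Recomputed one by one were 89 calls, namely those of members at the 3 stage steps, the 2 myogenic steps and between dorsal and ventral cells and up to 3 leading members of each class, in 1357 alternatives. The direction and the side of the threshold stayed the same in 1210, and 147 kept the direction and lost the call, 99 of them on leaving out a library. None of these reversed. Single values of the test over all stages, of stage within classes, of other class differences and of pathway genes were not recomputed. The counts of members called moved as follows, where a limit of 5% or 4 markers also left fewer members to test. From E16 to E18 (4) DESeq2 gave 9, a mitochondrial limit of 5% gave 0 and leaving out a library gave 0 to 8. From E18 to E21 (8) leaving out a library gave 1 to 12, and from E21 to E28 (11) 3 to 10. For stage (27) it gave 21 to 30. For DZ against ZZ (0) DESeq2 gave 1, and leaving out a library 0 to 0. For the classes (145) a limit of 5% gave 93. For the first myogenic step (12) a limit of 5% gave 5, 4 markers gave 6 and leaving out a library 7 to 10. For the second (6) the fit without the library block gave 3, and leaving out a library 4 to 7. For dorsal against ventral cells (8) a limit of 5% gave 3, with only 4 of the 8 calls still tested, no library block 5 and leaving out a library 7 to 10. For stage within classes (86) the alternatives gave 59 to 91. With the 6 libraries of Cell Ranger 3.0.2 only, chosen after seeing the data, the counts were 19 for stage, 8 and 9 for the last 2 steps, 120 for the classes, 9 and 7 for the myogenic steps and 10 for dorsal against ventral cells. The causes were not tested. A library left out leaves its stage with 1 sample, which is assumed to vary like the other groups. The library block of the class, myogenic and dorsal against ventral fits pairs sums of 1 library, and breeds were compared with stage as a term. No paired analysis was possible by replicate number because every library carries the number 1.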

Other observations

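The tendon-like gate held 158 cells, 55 and 83 of them in E28-ZZ and E28-DZ, and the macrophage gate 84, 31 and 30 of them there, too few libraries for a test. Values are given beside the whole library of the same breed at E28. In tendon-like cells DKK2 was at 143.8 and 161.9 CPM, beside 141.7 and 142 in the whole libraries, and SFRP1 at 564.3 and 790.3 CPM, beside 495.6 and 679.9. The tendon-like levels of both genes thus lay near those of their libraries. In macrophages SFRP1 was at 47.3 and 113.9 CPM (11 and 19 UMIs), and SFRP2 at 17.2 and 53.96 CPM (4 and 9 UMIs), beside 327 and 428.8 in the whole libraries. Both antagonists were lower in the macrophage sums than in the whole library of each breed.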
